A study of Drosophila melanogaster with 12 samples.

Results

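The Cpr genes of Drosophila melanogaster encode cuticle proteins. They were taken here as all protein-coding genes of a Release 6 gene table whose symbol is Cpr followed by a digit, each with 2 kb on both sides. They number 70 of 13946 protein-coding genes on the main chromosomes. Binding of Ultrabithorax (Ubx) at these genes was described in haltere imaginal discs, the larval epithelia that form the balancing organs behind the wings. The discs came from wandering L3 larvae with a wild-type genotype (strain Canton S), and chromatin was precipitated with a polyclonal antibody to the N-terminal region of Ubx and sequenced (ChIP-seq). The series holds 12 samples in 4 groups of 3: Ubx ChIP from haltere discs, Ubx ChIP from wing discs, and the input chromatin of each. The lists of peaks called in each haltere Ubx ChIP library, and their consensus, were analysed. The wing and input libraries were not analysed here, so binding was not compared between organs.

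Most insect cuticle proteins carry a chitin-binding stretch known as the Rebers and Riddiford consensus, and the Cpr genes are named for it. Epidermal cells secrete these proteins with chitin to build each new cuticle, and many of the genes lie side by side in tandem clusters. Ubx is the Hox transcription factor that makes the third thoracic segment form halteres in place of wings. Cpr47Ee, first named CG13222, is a known Ubx target in the haltere disc.

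The 70 genes were short and spread over 5 chromosome arms. Their median length was 1093.5 bp (range 457 to 18590 bp), against 2167 bp for the other protein-coding genes. Arm 3L carried 35 of them, 2R carried 21, 2L and 3R carried 5 each, and X carried 4. In all, 45 genes lay in 10 tandem clusters, defined as at least 3 Cpr genes in a row with no more than 20 kb between neighbours, and 25 lay outside clusters.

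Of the 70 Cpr genes, 7 had a consensus region inside the gene or no more than 2 kb from it (10%; 95% Wilson interval 4.93 to 19.2%). Among all protein-coding genes the share was 7.64% (1066 of 13946), which lies inside that interval. The share among other genes varied with gene length, at 9.54% in the shortest decile, between 2.38 and 4.08% in the second to sixth, and 28.8% in the longest. Other genes in the length deciles of the Cpr genes had regions at rates that would give 4 genes out of 70 (5.71%). The shortest decile held 88 histone genes, all 88 with a region. Without the histone genes, a setting chosen after seeing the data, the same rates would give 3.04 genes (4.34%). The interval of the Cpr genes thus holds the share of all genes and that of the length deciles, but not that of the length deciles without histone genes. These intervals cover only counting error, and they treat neighbouring genes that share a region as separate. With regions called from 2 libraries, the count was 2 Cpr genes without replicate 3 (3.76% of all protein-coding genes), 4 without replicate 2 (4.95%) and 5 without replicate 1 (6.28%). It was 1 when only the gene body counted (4.85% of all genes) and 12 with 5 kb on both sides (11.5%).

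**Figure D1:**
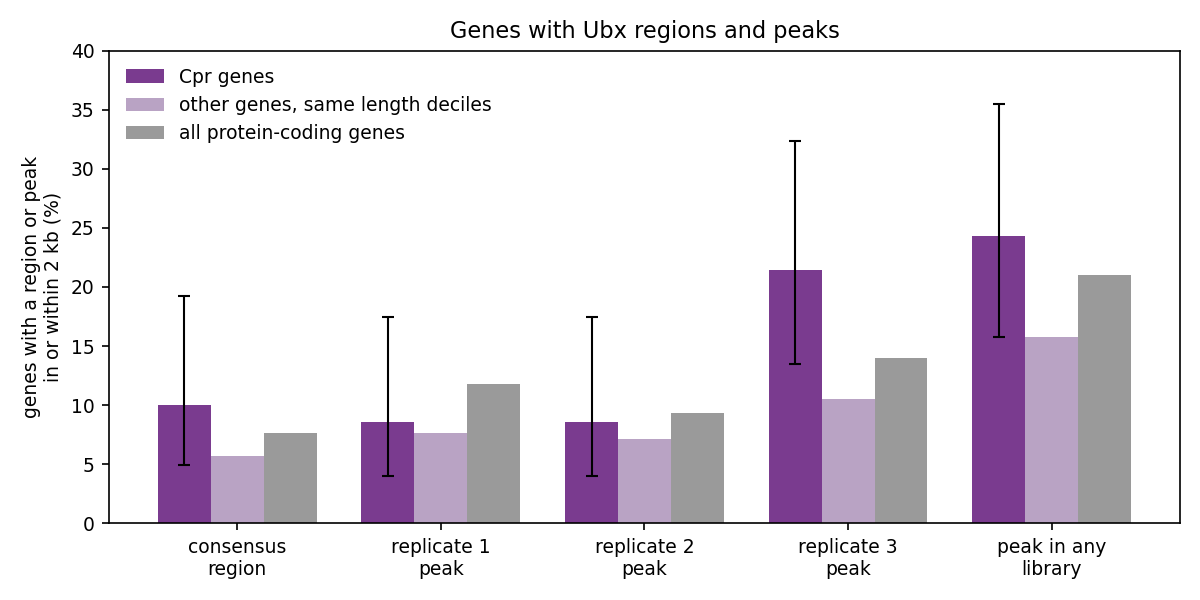
Share of genes (%) with a consensus region, a peak in each library or a peak in any library, in or within 2 kb. Dark bars are the 70 Cpr genes with 95% Wilson intervals, light bars are other genes of the same length deciles and grey bars are all 13946 protein-coding genes; the Cpr bar for replicate 3 stands at 21.4%, against 10.5% and 14.0%.

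The 7 genes were Cpr35B, Cpr47Ee, Cpr47Ef, Cpr49Ah, Cpr51A, Cpr62Ba and Cpr12A. They shared 9 distinct consensus regions. Each is a stretch that 2 or more of the 3 libraries cover with a peak. Peaks of all 3 libraries lay on 4 of the 9 regions, and peaks of 2 libraries on the other 5. Replicate 3 had a peak on all 9, replicate 2 on 7 and replicate 1 on 6. Regions in all 3 libraries occurred at 2 Cpr genes, Cpr35B and Cpr12A, against 3.53% of all protein-coding genes, and the rates of the length deciles would give 1.63 genes.

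**Figure D2:**
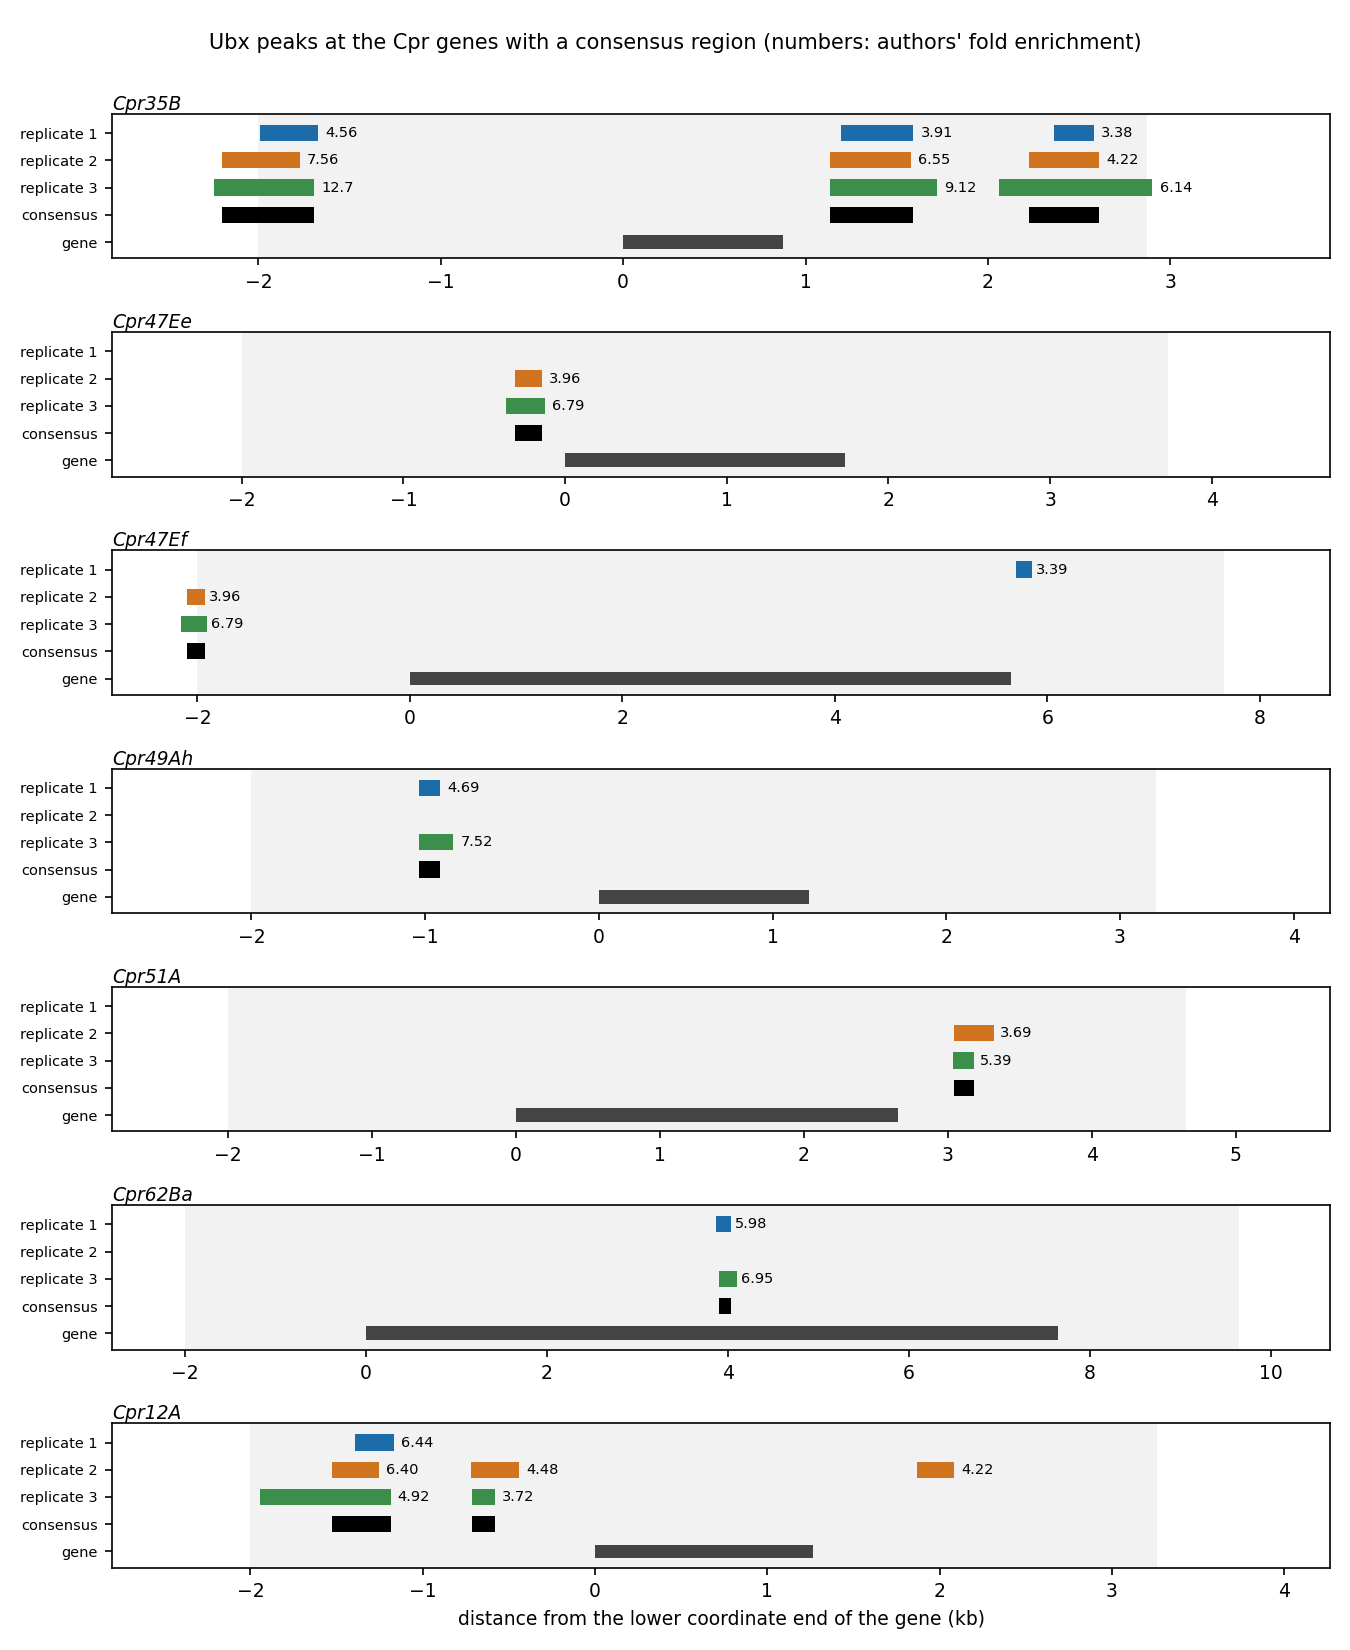
Positions of peaks at the 7 Cpr genes with a consensus region, as distance in kb from the gene's end with the lower coordinate. Coloured bars are the peaks of replicates 1, 2 and 3 with the authors' fold enrichment beside them, black bars are consensus regions, dark grey bars are the genes and the pale band is the gene with 2 kb on both sides; Cpr35B has 3 regions with peaks of all 3 libraries, and Cpr62Ba has its region inside the gene.

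Cpr35B (2L, 14424315 to 14425189; 875 bp) had the most regions of the family. It lies outside the tandem clusters, between Pburs, which encodes a subunit of the cuticle-tanning hormone bursicon, 6983 bp below it, and CG15283, 25092 bp above it. Its 3 regions all had peaks of all 3 libraries and lay outside the gene.

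The first Cpr35B region (2L, 14422115 to 14422620) ended 1695 bp below the gene's lower end. The authors' fold enrichment, the linear ratio of signal to local background at a peak's summit, came to 4.56 in replicate 1, to 7.56 in replicate 2 and to 12.7 in replicate 3. The summits lay within 55 bp of each other. In replicate 3 this was the strongest of all peaks at Cpr genes, at percentile 98.6 of fold within that list.

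The second Cpr35B region (2L, 14425451 to 14425906) began 262 bp above the gene, with folds of 3.91, 6.55 and 9.12 in replicates 1, 2 and 3. The third (2L, 14426538 to 14426924) began 1349 bp above the gene, with folds of 3.38, 4.22 and 6.14. The summits of the 3 libraries spread over 183 bp at the second region and 222 bp at the third. In each of the 3 libraries the first region had the highest fold, the second the next and the third the lowest. Within the lists, the 3 peaks stood at percentiles 56.8, 29.1 and 9.74 of fold in replicate 1, at 94.8, 90.3 and 55.3 in replicate 2, and at 98.6, 95 and 80.7 in replicate 3.

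The surroundings of Cpr35B were dense in regions. Within 50 kb of the gene lay 15 consensus regions, against a mean of 1.61 for Cpr genes and 2.21 for other protein-coding genes. Of all protein-coding genes, 1.03% (143) had as many or more. In that stretch, elB, which encodes a zinc-finger protein, had 2 regions in or within 2 kb, and Pburs and ppk had 1 each. The midpoint of each of the 3 Cpr35B regions was nearer to Cpr35B than to any other protein-coding gene.

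Cpr12A (X, 13543643 to 13544907; 1265 bp) had 2 regions, both below the gene's lower end. It also lies outside the tandem clusters, 7440 bp above CG15756 and 7651 bp below CG11816. The farther region (X, 13542117 to 13542458) lay 1185 bp away and had folds of 6.44 in replicate 1, 6.40 in replicate 2 and 4.92 in replicate 3. These stood at percentiles 88.6, 89.4 and 63.4 of their lists. The summits spread over 223 bp, practically as at the third Cpr35B region, against a median of 71 bp over the 927 consensus regions with peaks of all 3 libraries. The nearer region (X, 13542930 to 13543065) lay 578 bp away and had folds of 4.48 in replicate 2 and 3.72 in replicate 3. Replicate 2 had another peak 606 bp above the gene, with a fold of 4.22, that no other library matched.

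Cpr47Ee (2R, 11265126 to 11266856; 1731 bp) had a single region, 143 bp below its lower end (2R, 11264818 to 11264983). Replicate 3 had a fold of 6.79 there (percentile 86.0), replicate 2 had 3.96 (percentile 46.5), and replicate 1 had no peak at the gene. Both summits lay within 35 bp. No other consensus region lay within 50 kb of it, and the next was 61201 bp away. The same region counts for Cpr47Ef (2R, 11266915 to 11272575; 5661 bp), whose gene starts 58 bp beyond Cpr47Ee, but only because its end lies 1932 bp from that gene. Replicate 1 had its own peak 49 bp above the upper end of Cpr47Ef, with a fold of 3.39 (percentile 10.1). Cpr47Ed, 3012 bp from the region, was the nearest Cpr gene beyond the 2 kb limit.

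Cpr49Ah (2R, 12413962 to 12415170; 1209 bp) had a region 914 bp below its lower end (2R, 12412928 to 12413048). Folds were 4.69 in replicate 1 and 7.52 in replicate 3, with summits 7 bp apart, and replicate 2 had no peak there. In replicate 3 the peak stood at percentile 90.0 of fold.

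Cpr51A (2R, 14512559 to 14515211; 2653 bp) had a region 394 bp above its upper end (2R, 14515605 to 14515740). Folds were 3.69 in replicate 2 and 5.39 in replicate 3, and replicate 1 had no peak. The gene Asx, which encodes a subunit of the Polycomb repressive deubiquitinase, ends 65 bp below Cpr51A, and CG30197 overlaps Cpr51A. The region lies on the other side, toward ttv, an enzyme of heparan sulfate synthesis that begins 11055 bp beyond Cpr51A.

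Cpr62Ba (3L, 1824129 to 1831783; 7655 bp) was the only one of the 7 genes with a region inside the gene (3L, 1828029 to 1828166). Folds were 5.98 in replicate 1 and 6.95 in replicate 3, at percentiles 83.9 and 86.8, and replicate 2 had no peak. The gene table gives no exons, so whether the region is exonic or intronic is not known here.

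The 9 regions thus lay mostly beside the genes, with 8 outside every Cpr gene and 1 inside. The nearest protein-coding gene to the midpoint was a Cpr gene for all 9. The files and the gene table give no strand, so a side is named by coordinate and not as upstream or downstream.

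A further 10 Cpr genes had a peak in 1 library but no consensus region. Of these, 8 had it in replicate 3: Cpr49Ac, Cpr65Av, Cpr65Aw, Cpr66D, Cpr72Ea, Cpr73D, Cpr97Ea and Cpr97Eb. Cpr65Ec had it in replicate 2 and Cpr78Cc in replicate 1. Of all 13946 protein-coding genes, 2923 (21.0%) had a peak of any library, and 1066 of these (7.64% of all) had a consensus region. The rest of the 2923 had a peak but no region. Among Cpr genes the corresponding shares were 24.3% and 10%. Over all genes, those with a peak but no region were not split by library. The replicate 3 list is the longest, at 3859 peaks against 2869 and 2361 for the other libraries. Whether 8 of 10 exceeds what that length alone would give was thus not tested. Neighbours among the 10 Cpr genes shared peaks too. A replicate 3 peak lay within 2 kb of both Cpr65Av and Cpr65Aw (fold 4.85), and another of both Cpr97Ea and Cpr97Eb (fold 3.26). A further replicate 3 peak lay 713 bp above Cpr65Aw (fold 3.36), nearer to Lcp65Ad, and the replicate 2 peak lay 1799 bp below Cpr65Ec (fold 3.63). The peaks at Cpr73D (fold 4.4) and Cpr78Cc (fold 4.18) lay inside the gene. The peak 220 bp above Cpr66D had a fold of 4.13 and the peak 1499 bp below Cpr72Ea had 4.71. The weakest was 769 bp below Cpr49Ac, with a fold of 3.13 (percentile 8.01).

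The 3 libraries differed in how many Cpr genes they marked. Replicate 1 had a peak at 6 Cpr genes (8.57%), against 11.8% of all protein-coding genes. Replicate 2 also had 6 (8.57%), against 9.31%. Replicate 3 had 15 (21.4%; 95% Wilson interval 13.4 to 32.4%), against 14.0%. The rates of the length deciles would give 5.35, 5.01 and 7.35 genes. These rates, and the one for any library below, include the histone genes and were not computed without them. The replicate 3 interval holds the share of all genes and not the 10.5% of the length deciles, and shared peaks at neighbouring genes enter that count more than once. Over any library, 17 Cpr genes had a peak (24.3%; 15.8 to 35.5%), against 21.0% of all protein-coding genes, and the rates of the length deciles would give 11 genes (15.8%).

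The lists themselves differ in length, with 2869 peaks in replicate 1, 2361 in replicate 2 and 3859 in replicate 3. Read depth is unknown for these files, so the part of depth in these counts was not tested. As a share of each list, distinct peaks at Cpr genes were 0.279% in replicate 1 (8 peaks), 0.381% in replicate 2 (9 peaks) and 0.415% in replicate 3 (16 peaks).

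Of these 33 peaks, 22 lay on a consensus region and 11 did not. Peaks on a region had median folds of 4.62, 4.48 and 6.79 in replicates 1, 2 and 3, against 3.79, 3.92 and 4.13 for the peaks on none. The peaks on none numbered 2, 2 and 7, and their folds ran from 3.13 to 4.85. The same split was not made over the whole lists, so whether this difference is particular to Cpr genes was not tested. Over all their peaks the Cpr genes stood close to each list as a whole, with median folds of 4.37, 4.22 and 4.88, against 4.35, 4.05 and 4.4.

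**Figure D3:**
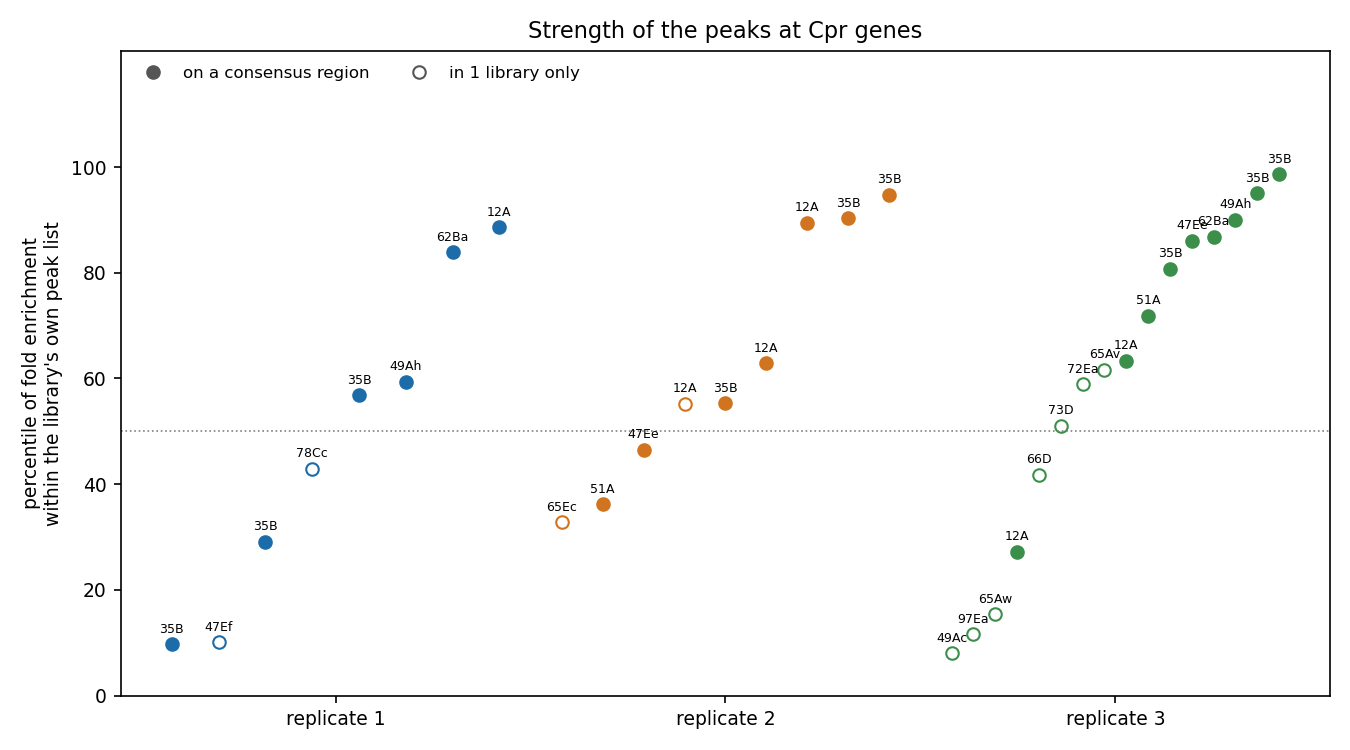
Percentile of fold enrichment of each peak at a Cpr gene within its own library's list, for replicates 1, 2 and 3. Filled circles lie on a consensus region and open circles were found in 1 library only; labels give the gene without the letters Cpr, and a peak shared by neighbouring genes is shown once, while the highest point is Cpr35B in replicate 3 at 98.6.

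Of the 10 tandem clusters, 3 had a consensus region at a Cpr gene and 7 had none. The Cpr47E cluster on 2R (7 Cpr genes in 26695 bp) had its region at Cpr47Ee and Cpr47Ef, at 1 point in the row. The Cpr49A cluster on 2R (8 genes in 38545 bp) had it at Cpr49Ah, the last gene, and a replicate 3 peak at Cpr49Ac. The Cpr62B cluster on 3L (3 genes in 17956 bp) had it at Cpr62Ba, the first gene. No cluster had more than 1 region. Without replicate 3 no cluster had a region, and without replicate 1 only the Cpr47E cluster had one.

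Among the 7 clusters without a region, 4 had a peak in 1 library at a Cpr gene and 3 had none. The Cpr65A cluster (3L, 6131242 to 6161589) spans 30348 bp with 7 Cpr genes and 11 other protein-coding genes. Replicate 3 had 3 peaks in this span with 2 kb on both sides, while replicates 1 and 2 had 0 each. The Cpr65E, Cpr72E and Cpr78C clusters had 1 peak each, in replicate 2, replicate 3 and replicate 1. The Cpr64A, Cpr67F and Cpr76B clusters, with 4, 3 and 4 Cpr genes, had no peak at a gene in any library.

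The spans of the clusters without a region lay between 18609 bp (Cpr76B) and 55333 bp (Cpr65A) from the nearest consensus region. For single genes, the median distance to a region was 36014.5 bp for Cpr genes and 42412 bp for other protein-coding genes. The spans were thus not unusually far from a region. Cpr65Ax1 and Cpr65Ax2, and Cpr67Fa1 and Cpr67Fa2, have the names of closely related copies. How reads that map to several places were treated is not given in the sources used here, so the lack of peaks at these 4 genes is uncertain.

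Genes in clusters had a region in 4 of 45 cases (8.89%; 3.51 to 20.7%), and genes outside clusters in 3 of 25 (12%; 4.17 to 29.96%). The intervals overlap. The 25 genes outside clusters held 6 of the 9 regions and those in clusters held 3. In the joined windows of the genes this was 32.6 regions per Mb outside clusters and 16.1 in clusters. Without Cpr35B, left out after its values were seen, the value outside clusters was 16.8 per Mb. All Cpr genes together had 24.3 regions per Mb, against 14.5 for all protein-coding genes. These densities were not matched for gene length, and windows of short genes consist more of the 2 kb sides than windows of long genes. All Cpr genes other than Cpr35B had 16.4 per Mb.

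**Figure D4:**
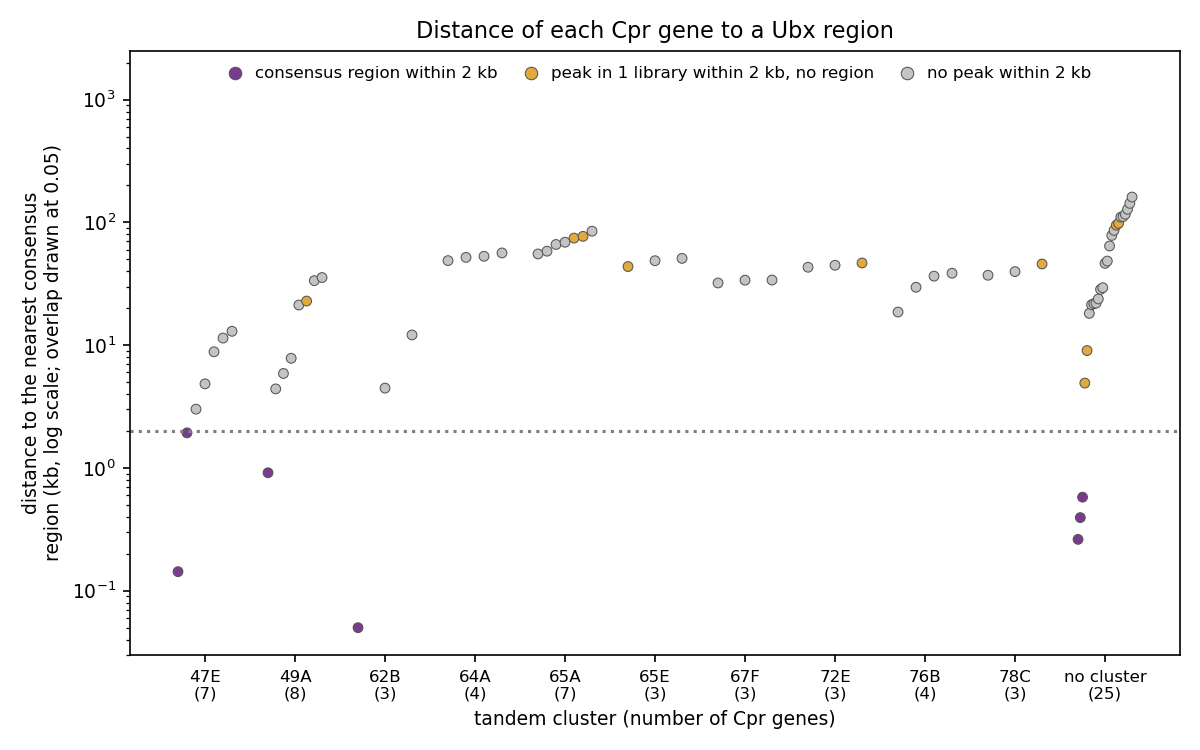
Distance in kb (log scale) from each of the 70 Cpr genes to its nearest consensus region, by tandem cluster and for the 25 genes outside clusters. Each point is a gene, the dotted line is the 2 kb limit, and colours mark a region, a peak in 1 library or no peak within 2 kb; in 7 of the 10 clusters every gene lies over 10 kb from a region.

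No peak of any library was called in or within 2 kb of the other 53 Cpr genes, 35 in clusters and 18 outside. Their distance to the nearest consensus region had a median of 37110 bp and ran from 3012 to 160890 bp. Over all other protein-coding genes, with or without a peak, the median was 42412 bp. The farthest was Cpr23B. A lack of a peak says only that none passed the authors' limit.

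At wider distances, 12 Cpr genes (17.1%) lay within 5 kb of a consensus region, against 9.88% of other genes of the same length deciles. Within 20 kb the shares were 30% and 27.9%. Within 50 kb they were 68.6% and 54.4%. Neighbouring Cpr genes share their nearest region, so these counts hold fewer independent places than genes.

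By arm, 4 of 21 Cpr genes on 2R had a region (19.0%), against 7.92% of other protein-coding genes there, while 1 of 35 on 3L did (2.86%), against 7.21%. On 2L it was 1 of 5, against 10.6% of other genes there, and on X 1 of 4, against 6.52%. On 3R it was 0 of 5, against 6.34%. The 4 genes on 2R rest on 3 regions.

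Other genes of cuticle and apical matrix were set beside the Cpr genes as lists. None of 27 cuticle genes of the same protein type with other symbols, such as the Lcp and Ccp84A genes, had a consensus region. Of these 27 genes, 8 had a peak, each in 1 library, where 21.0% of all protein-coding genes had a peak of any library. Lcp2 and Lcp3 had it in replicate 1, Edg84A and Ccp84Ag in replicate 2, and Lcp65Ad, Lcp65Ac, Lcp65Aa and Acp65Aa of the Cpr65A stretch in replicate 3. The rates of their length deciles would give 1.85 genes with a region. Their median length of 713 bp lies in the shortest decile, whose share of 9.54% includes the histone genes. Without the histone genes that share was 3.4%, and the value of 1.85 was not recomputed. None of the 25 Tweedle genes, another family of cuticle proteins, had a region or a peak in any library. The rates of their length deciles, histone genes included, would give 1.02 genes with a region.

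Among 19 genes of chitin synthesis and assembly, 5 had a consensus region (26.3%; 11.8 to 48.8%), against 2.53 genes at the rates of their deciles. They were the chitin deacetylase genes serp with 2 regions, verm with 1 and Cda4 with 1, the chitin-binding protein gene Gasp with 2, and the chitinase gene Cht5 with 1. Only the Cda4 region had peaks of all 3 libraries. The chitin synthase gene kkv had 1 peak, in replicate 1. A list drawn up as zona pellucida domain and apical matrix genes held 12 genes, among them trn, f and sha. Whether each belongs to that class was not checked. Of the 12, 4 had a region (33.3%, interval 13.8 to 60.9%), against 2.36 genes. They were mey and nyo with 3 regions each, and qsm and pio with 1 each. A peak of any library lay at 11 of the 19 chitin genes and 5 of the 12 genes of the apical matrix list, against 21.0% of all protein-coding genes. Genes of both lists are longer than Cpr genes, with medians of 6265 and 14475.5 bp, and with lists this small the intervals are wide.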

How the data were processed

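Trimmomatic 0.36, BWA and MACS2 are named in the submitters' processing notes, with the build BDGP6 (Release 6), and the series' design text says that MACS2 identified the peaks and that 3 biological replicates were used. Parameters, the control and the treatment of duplicate reads are not given in the sources used here. Each deposited list gives, per peak, a fold enrichment (a linear ratio), a −log10 p-value, a −log10 q-value and a score, all as made by the authors. The authors' score adds nothing to the q-value: it is 10 times the −log10 q-value, cut to a whole number. The deposited consensus has positions and no values, and its 2171 regions equal the 2171 stretches that 2 or more libraries cover with peaks. No file gives read counts, so depth and its effect on precision are unknown. Positions were rewritten 1-based.

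Genes and their positions came from an NCBI RefSeq table of Release 6, which gives no strand, exons or sequence. A gene counted when a region or peak shared at least 1 bp with the gene plus 2 kb on each side. Shares over other genes were taken within deciles of gene length and averaged over the Cpr genes. The histone genes stayed in the deciles except where stated. Intervals are 95% Wilson intervals. All 3 libraries form 1 group, so no test between groups was made, and where the labels say biological replicates they give no more on their source. Of the listed apical matrix symbols, 12 of 13 matched. Overlap code was tested on simulated data. The code used pandas 2.3.3, scipy 1.17.1, numpy 2.4.6 and matplotlib 3.10.9 under Python 3.11.15.

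The Cpr genes, the lists and the settings were chosen with earlier results of these data known. Named are all Cpr genes with a consensus region or a peak. Genes that are no Cpr gene are named where they neighbour a region. From the lists, all genes with a region are named, but not all of those with only a peak. Cda5, obst-B, exp, Cht7, obst-A and neo had a peak and no region and are not described above. This choice was made after the values were seen. The alternatives tried were other windows, region definitions and assignments, other cluster gaps, and leaving out each library.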

Additional observations from a re-analysis of the deposited data

How the results depend on the processing

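The number of Cpr genes with a consensus region, 7 as reported, was 1 when only the gene body counted (4.85% of all protein-coding genes, and 1.99 genes at the rates of the length deciles) and 12 with 5 kb on both sides (11.5% and 6.92). It was 2 for regions in all 3 libraries (3.53% and 1.63) and 4 for the strongest 50% of each list (4.2% and 1.78). With 1 kb on both sides (6.4%) or regions given to the nearest gene only (6.05%) it was 6, and with 50% coverage 7. Without the histone genes, added after seeing the data, 6.9% of all genes had a region. Leaving out each library in turn gave 2 to 5 Cpr genes, 3.76 to 6.28% of all genes and 1.68 to 3.45 genes at the rates of the deciles, lowest without replicate 3, which left Cpr35B and Cpr12A, and 4 without replicate 2. Each of these settings except the 5 kb window can only remove regions or genes.

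The number of tandem clusters with a region, 3 as reported, was 1 for gene bodies, 0 for regions in all 3 libraries and 0 to 2 when each library was left out, with 0 without replicate 3 and 1 without replicate 1. Joining clusters up to 10 or 50 kb left it at 3. Cpr genes with a peak numbered 2 in replicate 1, 0 in replicate 2 and 2 in replicate 3 for gene bodies (7.26, 5.77 and 8.43% of all protein-coding genes), and 12, 11 and 25 with 5 kb on both sides (18.3, 13.9 and 21.1%). With the strongest 50% of each list they numbered 4, 2 and 11 in replicates 1, 2 and 3 (6.36, 4.57 and 7.46% of all protein-coding genes). Of 63 counts of regions at single genes under these settings, 32 moved by over 1.5 times, all of them lower. Cpr35B kept 3 regions under each setting except gene bodies (0) and 1 kb (1).

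No paired analysis was possible because the peak lists all belong to 1 group. The unknown read depth limits every statement on genes without a peak. Promoter motifs and protein features were not examined because no sequence or strand was used here.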
